A study of Mus musculus with 16 samples.

Results

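This account describes the MHC class II genes, 6 genes listed by name: H2-Aa, H2-Ab1, H2-Eb1, H2-DMa, Cd74 and Ciita. A gene was read from every probe set that carried its symbol and no other. By that rule 5 of the 6 genes were measured, each by 1 probe set, out of 22180 genes with such a probe set. All 5 passed the filter on dim genes and were among the 18095 genes tested. The only probe set naming Cd74, the invariant chain, also named a second gene, so Cd74 was not read here.

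MHC class II molecules are pairs of an alpha and a beta chain that present peptides from the endosomal pathway to CD4+ T cells. H2-Aa and H2-Ab1 encode the alpha and beta chains of I-A, and H2-Eb1 encodes the beta chain of I-E. Mice of the C57BL/6 background carry a defect in the alpha chain gene of I-E and do not display I-E. H2-DMa encodes a chain of H2-M, the chaperone that exchanges the invariant chain remnant for peptide in the groove. Ciita is the transactivator that switches on class II genes through proteins bound to their promoters, and interferon gamma is its best known inducer. Class II is constitutive in dendritic cells, B cells and many macrophages, and intestinal epithelium and fibroblasts can acquire it during inflammation.

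Expression was measured on 16 microarrays of small intestinal cells from male-labelled C57Bl/6 mice killed at 8 to 10 weeks. Wild-type epithelial organoids were profiled alone and after co-culture with myofibroblasts (n = 2 each, animals P28 and P30). Wild-type myofibroblasts, called fibroblasts below, were profiled alone and after co-culture with organoids (n = 3 each, animals Pl_I, Pl_II and Pl_III). In co-culture the cell types shared medium for 24 h across an insert with 0.4 µm pores. The last group was adenoma cells of Apc+/1638N mice (4 animals, P21, P23, P34 and P36, on 6 arrays), which carry a truncating change in 1 copy of the Wnt pathway inhibitor Apc in every cell of the body. The titles and the design text give 4 adenoma animals, which was followed here, while the adenoma source labels say n = 3. The labels do not say whether the adenoma cells were cultured. Values are the deposited log2 levels of probe sets, differences are log2 differences ± SE from limma, and a gene is called at an adjusted p under 0.05 over all genes tested. Levels of different probe sets are not comparable with each other. A level of 2.67, the 30th percentile of probe set means, is used below as the dim level.

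The samples matched their labelled cell type, with exceptions. The 6 epithelial markers averaged 11.13 to 11.96 in epithelial and adenoma samples and 3.46 to 4.00 in fibroblasts, and the 7 fibroblast markers averaged 10.85 to 11.40 in fibroblasts and 2.99 to 3.43 elsewhere. The fibroblast cultures also carried macrophage RNA: 12 macrophage markers averaged 7.73 to 8.85 there, all 12 above the dim level in every culture, against 3.52 to 3.82 in the other groups. Markers of B cells, which also express class II, averaged 2.29 to 2.85 in all 14 samples. Both cultures of P28 and of Pl_III had Xist between 7.57 and 8.29 and Eif2s3y between 2.53 and 3.20, against their male label, while Xist did not exceed 2.81 in any other sample. Most results below, the lists among them, are given with all animals, but the called member differences are also given without these 2. Each epithelial group is then 1 sample, P30, which the fit assumes to vary like the other groups, so these values have no replicate check within epithelium; the same holds where a single epithelial sample is left out.

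H2-Ab1 was the member with the widest range. In fibroblasts alone its level was 6.69 in Pl_I, 5.72 in Pl_II and 3.65 in Pl_III. In co-cultured fibroblasts it was 7.33, 6.26 and 4.14 in the same animals. Epithelium alone had 3.22 in P28 and 3.24 in P30, and co-cultured epithelium had 2.48 and 2.97. The adenomas had 2.77 in P21, 2.56 in P23, 3.15 in P34 and 3.08 in P36. All 6 fibroblast cultures thus lay above all 8 other samples, and within the fibroblasts the animals differed far more than the culture conditions. Epithelial and adenoma levels were close to the dim level.

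**Figure D1:**
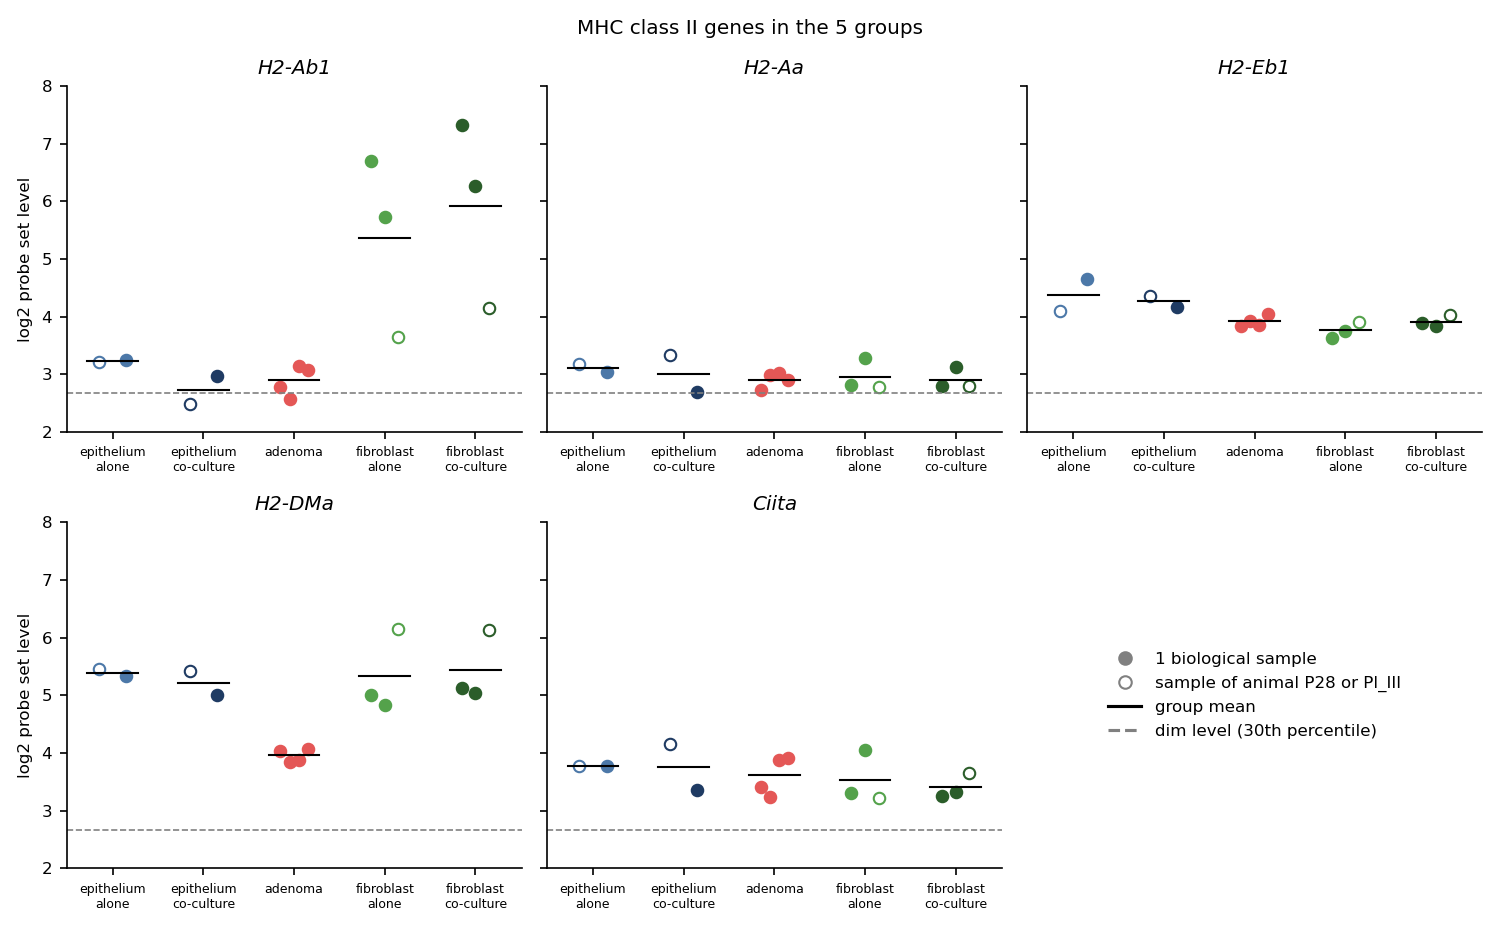
Log2 probe set level of each measured class II gene (vertical axis) in every biological sample of the 5 groups (horizontal axis), with group means as bars, the dim level dashed and animals P28 and Pl_III as open circles. H2-Ab1 spreads from 3.65 to 7.33 in fibroblasts, and H2-DMa is lower in the 4 adenomas (3.84 to 4.07) than in the other samples.

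Co-cultured fibroblasts exceeded co-cultured epithelium in H2-Ab1 by 3.19 ± 0.87 (adjusted p = 0.00954), the only call among the 5 members in that comparison, where 23.9% of all genes were called higher. This call was lost without the P28 epithelial co-culture, where the difference was 2.94. Without P28 and Pl_III, with P30 as the only epithelial sample, the difference was 3.83. That fit leaves out Pl_III, the fibroblast animal with the lowest H2-Ab1. Between the cell types cultured alone the difference of 2.13 ± 0.87 missed the threshold (adjusted p = 0.0584). It passed with the animal as a random replicate block (adjusted p = 0.0268). Without P28 and Pl_III, against the P30 monoculture alone, it was 2.97, again without the fibroblast animal lowest in H2-Ab1. Leaving out only the Pl_III monoculture gave 2.98 (limma adjusted p = 0.00674). Adenoma minus fibroblasts alone was -2.47 ± 0.72 (adjusted p = 0.0143), a call lost without the monoculture of Pl_I (-1.80, adjusted p = 0.0751) or of Pl_II (-2.28, adjusted p = 0.0514). Without P28 and Pl_III, again without the fibroblast animal lowest in H2-Ab1, it was -3.32. In these bulk samples, fewer cells of a type and less RNA per cell cannot be told apart.

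H2-Aa, the alpha partner of H2-Ab1, showed no such pattern. Its level was 2.81, 3.27 and 2.78 in fibroblasts alone and 2.80, 3.12 and 2.79 in co-cultured fibroblasts of Pl_I, Pl_II and Pl_III. Epithelium had 3.17 and 3.04 alone and 3.34 and 2.68 in co-culture, and the adenomas had 2.72, 2.98, 3.02 and 2.90 in P21, P23, P34 and P36. The 5 groups overlapped, with means of 2.90 to 3.11, all close to the dim level. Fibroblasts alone minus epithelium alone gave -0.15 ± 0.21 (95% interval -0.61 to 0.31, adjusted p = 0.580). Both co-cultured, where H2-Ab1 was called, the limma difference of H2-Aa was -0.11 ± 0.21 (adjusted p = 0.719). The higher level of the beta chain in fibroblasts was not matched by the probe set of the alpha chain. As that probe set was close to the dim level throughout, little alpha chain RNA and a probe set that reads little cannot be told apart.

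H2-Eb1, the I-E beta chain, was at 4.09 in P28 and 4.66 in P30 in epithelium alone. Co-cultured epithelium had 4.36 and 4.17, within that range, fibroblasts alone had 3.63, 3.76 and 3.90, and co-cultured fibroblasts had 3.88, 3.83 and 4.02. The adenomas had 3.84, 3.93, 3.85 and 4.05. All 4 epithelial samples lay above the other 10, but narrowly, with P28 alone at 4.09 and adenoma P36 at 4.05. Technical repeats of this gene differed by more than that, by 0.13 in P21 and 0.11 in P34. The difference of H2-Eb1 between fibroblasts alone and epithelium alone was -0.61 ± 0.17 (adjusted p = 0.00882). This was the only call among the 5 members in that comparison, where 24.2% of genes were called lower. It was lost without the P30 monoculture (-0.32, adjusted p = 0.147) and in a fit of these groups alone (adjusted p = 0.0693). Without P28 and Pl_III the epithelial arm is that P30 monoculture alone, and the difference was -0.96 ± 0.17 (adjusted p = 0.00242). The alpha chain gene of I-E, H2-Ea, lay between 1.70 and 2.51 in all 14 samples, under the dim level.

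Promoters of class II genes carry an X box, bound by the RFX complex and CREB, and a Y box, bound by NF-Y, and Ciita acts through the proteins assembled there. RefSeq promoter entries (GRCm38.p6, 250 bases before to 50 after the gene start) matched 3 of the 6 members, H2-Aa, H2-Eb1 and H2-DMa, and 5 of 6 other class II genes. An X-box-like pattern (GNAAC, then 2 or 3 bases of any kind, then TGANG), followed within 30 bases by the Y box core ATTGG on the same strand, was searched on both strands. The pattern was written after these sequences had been read. It was found for H2-Aa, H2-Eb1, H2-DMb1 and H2-Ob, and in 0.0974% of all 32851 promoter entries (32 entries). Neither of the 2 starts of H2-DMa held it, nor did H2-DMb2, H2-Oa or H2-Eb2. A match is a description of the letters and shows no binding. The stretches are shown for H2-Aa, H2-Eb1 and H2-DMb1, which share this layout. H2-Eb1 had its highest group means in epithelium and H2-DMb1 in fibroblasts. H2-Aa stayed close to the dim level, with group means of 2.90 to 3.11, so it shows no run across the groups to compare. The part of the promoters in these levels was not tested. H2-Ob, not shown, also had the layout, with group means of 2.62 to 3.00, near the dim level. Capitals mark the X-box-like match and the Y box core, and letters run from 5′ to 3′ on the gene's strand. H2-Aa is from chr17:34287847-34287924 (minus strand), H2-Eb1 from chr17:34305756-34305832 (plus) and H2-DMb1 from chr17:34153077-34153154 (plus).
H2-Aa: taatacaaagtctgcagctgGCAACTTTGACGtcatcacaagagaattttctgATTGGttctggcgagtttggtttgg
H2-Eb1: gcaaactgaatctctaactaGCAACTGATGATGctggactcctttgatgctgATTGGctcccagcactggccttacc
H2-DMb1: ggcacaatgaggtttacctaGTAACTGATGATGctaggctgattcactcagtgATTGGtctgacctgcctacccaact

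H2-DMa, the peptide-loading chain, was above the dim level everywhere. Its adenoma levels lay near the 3.46 to 4.00 that epithelial markers averaged in fibroblasts. Epithelium alone had 5.45 in P28 and 5.34 in P30, and co-cultured epithelium had 5.42 and 5.004. Fibroblasts alone had 5.02, 4.83 and 6.14 in Pl_I, Pl_II and Pl_III, and their co-cultures had 5.12, 5.05 and 6.13. The adenomas had 4.04, 3.84, 3.89 and 4.07. The 4 adenomas lay below every other sample, and Pl_III stood above the other fibroblast animals in both cultures, the reverse of its place for H2-Ab1. Between fibroblasts and epithelium H2-DMa differed by -0.06 ± 0.38 (both alone, 95% interval -0.88 to 0.76) and 0.22 ± 0.38 (both co-cultured), and neither passed.

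Ciita stayed in a narrow band, around the 3.46 to 4.00 that epithelial markers averaged in fibroblasts. Its level was 3.78 and 3.78 in epithelium alone and 4.15 and 3.36 in co-culture. It was 3.31, 4.05 and 3.23 in fibroblasts alone, 3.26, 3.32 and 3.65 in their co-cultures, and 3.41, 3.24, 3.87 and 3.92 in the adenomas. The 5 groups overlapped and Ciita was not called in any of the 9 comparisons (adjusted p from 0.390 to 1). For adenoma P34 its technical repeats differed by 0.66 (4.20 and 3.55), about as much as the range over the 4 adenoma animals (3.24 to 3.92). Pl_I, the animal with the highest H2-Ab1, had Ciita at 3.31 and 3.26, within the range of the other samples.

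The fibroblast animals could be followed through the other genes of the pathway. Besides H2-DMa, its partner chain H2-DMb1 was higher in Pl_III (5.27 alone, 5.41 in co-culture) than in Pl_II (3.69 and 3.81), with Pl_I at 3.50 and 4.82. The 12 macrophage markers also averaged most in Pl_III, at 8.72 alone and 8.85 in co-culture, against 7.74 and 7.96 in Pl_I and 7.78 and 7.73 in Pl_II. H2-Ab1 followed another order, highest in Pl_I and lowest in Pl_III. The 15 genes of the list of interferon-induced GTPases and chemokines had that order, with averages of 6.23, 5.43 and 5.09 alone and 7.67, 6.19 and 5.40 in co-culture for Pl_I, Pl_II and Pl_III. The 16 genes of the MHC class I pathway had it too, at 8.76, 8.35 and 8.01 alone and 8.99, 8.47 and 8.21 in co-culture. The order was not particular to these lists. Averages of the interferon gamma pathway (7.85, 7.65 and 7.33 in co-culture) had it in both conditions. So did those of the factors that act at class II promoters (7.94, 7.89 and 7.78 in co-culture). Fibroblast markers (11.33, 11.13 and 10.96) and costimulators and checkpoint ligands (5.56, 5.53 and 5.36) had it alone but not in co-culture. These are descriptions of 3 animals, and the part of macrophages or of the sex mismatch of Pl_III in them was not tested.

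**Figure D2:**
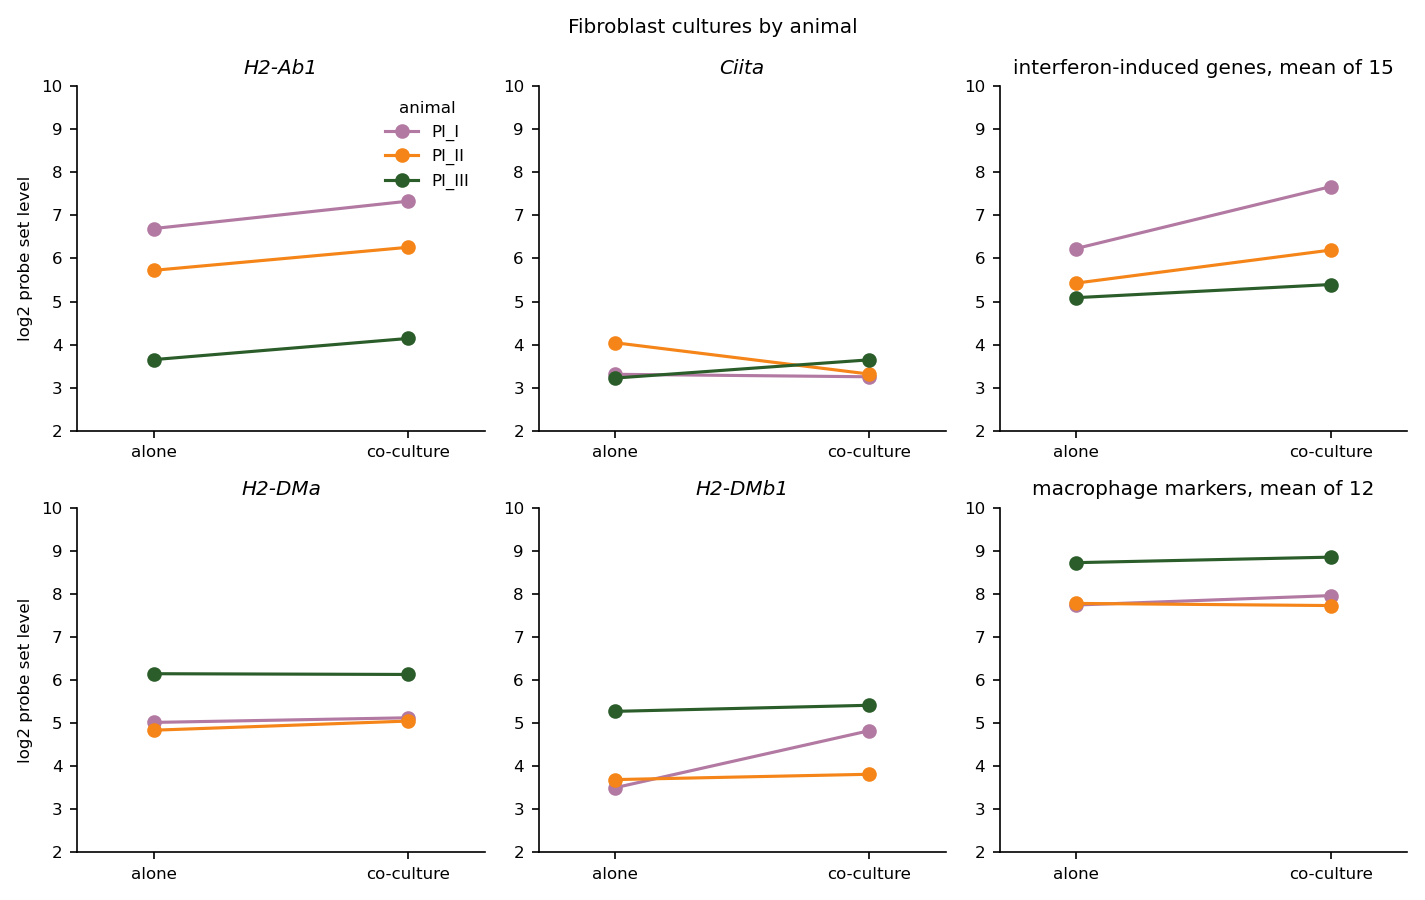
Log2 level (vertical axis) in fibroblasts alone and in co-culture (horizontal axis) for animals Pl_I, Pl_II and Pl_III, with a line joining the cultures of each animal; the right-hand panels show list means. H2-Ab1 and the interferon-induced list run from Pl_I down to Pl_III, whereas H2-DMa, H2-DMb1 and the macrophage list are highest in Pl_III.

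Not every gene of these lists had the order of its average. Of the 15 interferon-induced genes 9 ran from Pl_I down to Pl_III in fibroblasts alone and 12 in co-culture. Among them was Cxcl10, a chemokine induced by interferons, at 10.26, 9.31 and 6.36 alone. Irgm1 (7.79, 7.60 and 8.21), Ifit3 (4.29, 3.37 and 4.56) and Gbp4 (2.80, 2.41 and 3.54) were instead highest in Pl_III alone. Of the 16 MHC class I pathway genes 11 ran from Pl_I down to Pl_III alone and 12 in co-culture, among them the immunoproteasome subunit Psmb8 (8.28, 7.75 and 6.53 alone). The share of all genes with each order of the animals was not counted, so the counts here stand without a background. Of the 12 macrophage markers 10 were highest in Pl_III in each condition. The exceptions were Adgre1 (8.96, 9.13 and 8.94 alone) and Fcer1g, which ran with H2-Ab1 (10.93, 10.72 and 10.60 alone). Ifng itself lay between 2.21 and 3.12 in all 14 samples, near the dim level. Of the 7 dendritic cell markers 3 were called higher in fibroblasts than in epithelium, both alone, and 0 lower. Over all genes 26.5% were called higher and 24.2% lower in that comparison. In the fibroblast cultures Cd209a was at 7.36 to 8.06, Itgax, which macrophages also express, at 4.42 to 5.41, and Zbtb46 at 3.31 to 4.33. Cd209a was also bright elsewhere, with means of 6.01 in epithelium alone, 5.98 in co-cultured epithelium and 6.87 in adenoma. In the same order the means were 2.36, 2.27 and 2.62 for Itgax and 3.12, 3.54 and 3.34 for Zbtb46. Flt3 was at 2.32 to 3.17 and Xcr1 at 2.67 to 3.02 in the fibroblast cultures, near the dim level. The part of dendritic cells in the class II levels was not tested.

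The co-culture comparisons asked whether the presence of the other cell type changed gene expression. In epithelium 0 of 5 members were called by limma, where 4.03% of all genes were, and 0 of 5 had an unadjusted p under 0.05, where 16.9% did. H2-Ab1 differed by -0.50 ± 0.95, H2-DMa by -0.18 ± 0.41, H2-Eb1 by -0.11 ± 0.18, H2-Aa by -0.09 ± 0.23 and Ciita by -0.03 ± 0.33. The interval was narrower for H2-Eb1 (-0.51 to 0.29) and H2-Aa (-0.60 to 0.41) than for H2-Ab1 (-2.57 to 1.57), whose SE takes in the spread between fibroblast animals. All these intervals pool the spread of all groups. Within P28 and P30 the differences had opposite signs for H2-Eb1 (0.27 and -0.49), H2-Aa (0.16 and -0.35) and Ciita (0.37 and -0.42). Both were negative for H2-Ab1 (-0.74 and -0.27) and H2-DMa (-0.03 and -0.33). Of the list of 16 MHC class I pathway genes 0 were called, with a median of -0.16, and of the 10 interferon gamma pathway genes 0, with a median of -0.11, against a median of -0.02 over all genes.

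In fibroblasts 0 of 5 members were called by limma, where 0.00553% of all genes were, and 0 of 5 had an unadjusted p under 0.05, where 2.84% did. H2-Ab1 was higher in co-culture in 3 of 3 animals, by 0.64 in Pl_I, 0.53 in Pl_II and 0.49 in Pl_III. The mean within-animal difference was 0.55 ± 0.07 (SD, n = 3 animals; 2-sided exact sign-flip permutation test over animals, p = 0.25, the smallest that 3 pairs allow). The limma SE of 0.77 became 0.17 in a fit with a replicate block for each animal, and the adjusted p there was 0.622. Leaving out single samples, which breaks the pairs, moved the difference to between -0.30 and 1.44. H2-Eb1 was also higher in 3 of 3 animals, by 0.07 to 0.25 (exact sign-flip p = 0.25), while H2-DMa, H2-Aa and Ciita differed in sign between animals.

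The interferon-induced list differed in the same direction as H2-Ab1 in co-cultured fibroblasts. All 15 of its genes had a positive difference, 0 were called, and the median was 0.81 against 0.00339 over all genes. The median was 1.40 in Pl_I, 0.66 in Pl_II and 0.34 in Pl_III, so it varied between animals more than the differences of H2-Ab1 did. The macrophage markers had within-animal medians of 0.19, 0.03 and -0.02 in these animals. H2-DMb1 differed by 1.33 in Pl_I and by 0.12 and 0.14 in Pl_II and Pl_III, and was not called. A test of whether epithelium and fibroblasts responded differently called 0 of 5 members (1.11% of all genes; 0 of 5 at an unadjusted p under 0.05, where 12.7% were), with H2-Ab1 at -1.06 ± 1.22 (95% interval -3.73 to 1.62).

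**Figure D3:**
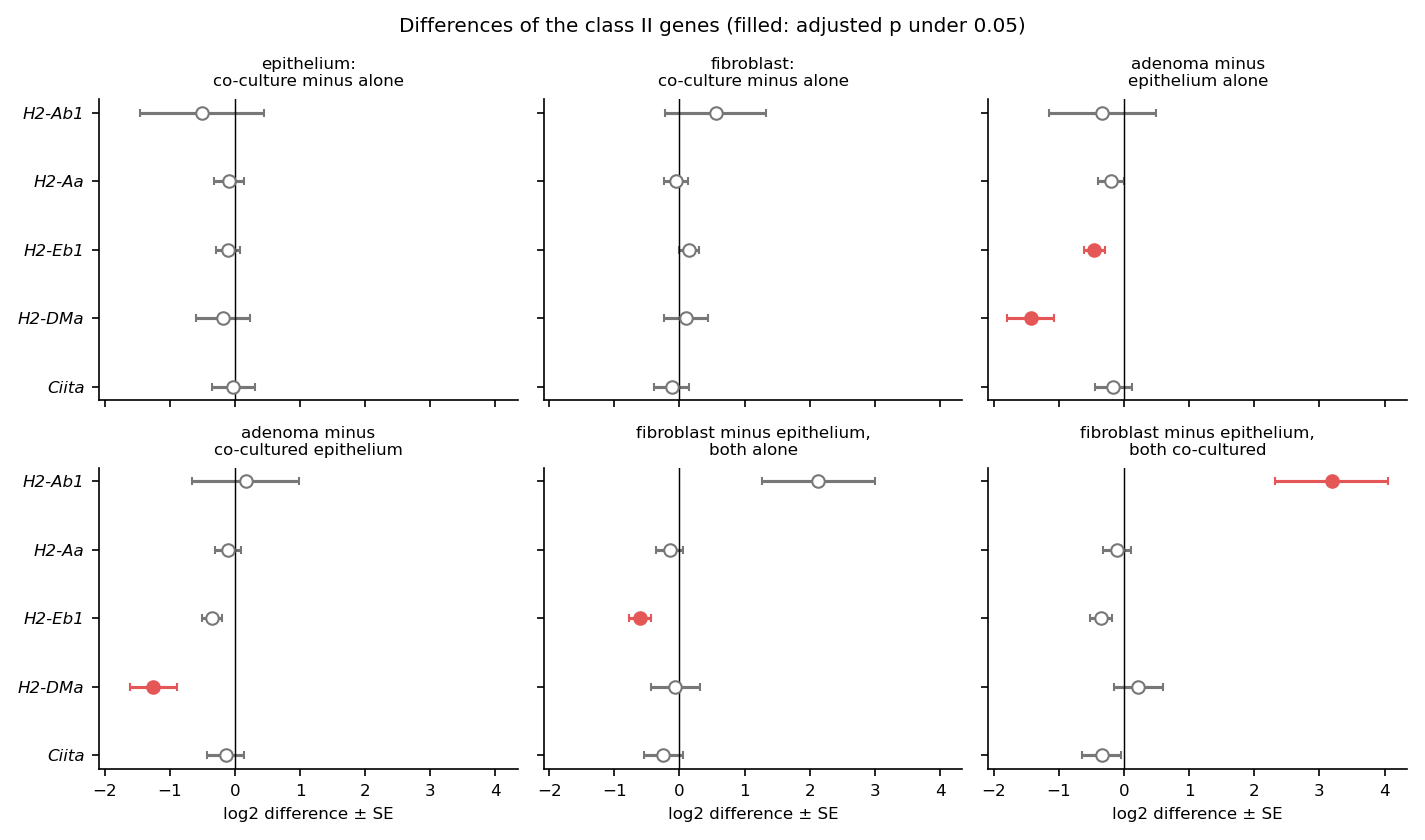
Log2 difference ± SE (horizontal axis) of the 5 class II genes in 6 comparisons, 1 per panel, with filled points where the adjusted p was under 0.05. H2-DMa is lower in adenoma against both epithelial groups, and co-culture calls no member in either cell type.

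The adenoma comparisons asked how cells of Apc+/1638N tumours differ from wild-type epithelium. H2-DMa was lower in adenoma, with a difference of -1.43 ± 0.36 from epithelium alone (adjusted p = 0.00625) and of -1.25 ± 0.36 from co-cultured epithelium (adjusted p = 0.0171). Against epithelium alone 2 of 5 members were called, both lower, where 18.5% of all genes were called lower. Against co-cultured epithelium 1 of 5 was called lower, where 14.3% were. The second call was H2-Eb1, at -0.46 ± 0.16 (adjusted p = 0.0355), which missed the threshold against co-cultured epithelium (-0.35 ± 0.16, adjusted p = 0.118). H2-Ab1 (-0.34 ± 0.82), H2-Aa (-0.20 ± 0.20) and Ciita (-0.17 ± 0.29) were not called against epithelium alone.

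Without P28 and Pl_III, with P30 alone in each epithelial arm, the H2-DMa difference was -1.38 and -1.04 against the 2 epithelial groups. Leaving out only the P28 monoculture or only the P28 co-culture gave the same differences and lost the call. In these fits the spread is taken from the other groups, where Pl_III stood above the other fibroblast animals. The SE was 0.48 and 0.47 with Pl_III kept and 0.16 without it. H2-Eb1 rested on the P30 monoculture, without which it was -0.17 (adjusted p = 0.471). Its call was also lost with the animal as a random replicate block (adjusted p = 0.0601), in a fit of the compared groups alone (adjusted p = 0.0911) and without adenoma P21, P23 or P34 (adjusted p from 0.0576 to 0.0716). Without P28 and Pl_III the P30 monoculture is the whole epithelial arm, and the difference was -0.74 ± 0.15 (adjusted p = 0.00771).

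Adenoma was also below fibroblasts alone in H2-DMa (-1.37 ± 0.31, adjusted p = 0.00331, and -0.97 without P28 and Pl_III). With H2-Ab1 this made 2 of 5 members called lower, where 21.5% of all genes were. The adenomas whose titles hold the word T2, P21 and P23, were compared with P34 and P36. Of the 5 members 0 were called by limma (7.14% of all genes; 0 of 5 at an unadjusted p under 0.05, where 16.6% were). Ciita had the largest difference, -0.57 ± 0.29 (95% interval -1.21 to 0.08, adjusted p = 0.395), and H2-DMa differed by -0.04 ± 0.43.

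Among other genes of antigen processing, the largest difference in adenoma was that of Ctss. Ctss, the cathepsin that trims the invariant chain, was at 8.89 and 8.92 in epithelium alone, 8.40 and 8.25 in co-cultured epithelium and 3.34 to 3.89 in the adenomas. The difference from epithelium alone was -5.30 ± 0.29 (adjusted p = 6.25e-08). Of the 9 processing and turnover genes tested 3 fell and 1 rose, where 18.5% of all genes were called lower and 22.5% higher. The median of the 9 was -0.16, against -0.34 for the 5 class II members and -0.03 over all genes. The other falls were Marchf8, a ubiquitin ligase that removes class II from the surface (-1.03 ± 0.15), and the lysosomal thiol reductase Ifi30 (-0.94 ± 0.20). Ctsl, the cathepsin that trims the invariant chain in cortical thymic epithelium, rose by 1.61 ± 0.38 (adjusted p = 0.00438). Against co-cultured epithelium Ctsl differed by 0.78 ± 0.38 and was not called.

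Among class II chains outside the 6 listed genes, 3 of 6 passed the filter on dim genes. H2-DMb2, a second beta chain gene of H2-M, fell in adenoma against epithelium alone (-1.15 ± 0.24, adjusted p = 0.00184), and H2-DMb1 (0.24 ± 0.47) and H2-Ob (-0.38 ± 0.16) were not called. H2-DMb2 lay at 3.73 and 3.53 in epithelium alone, 3.10 and 2.68 in co-culture and 2.26 to 2.64 in adenoma, under the dim level. Against co-cultured epithelium it was -0.41 ± 0.24 and not called.

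Of the 10 factors that act at class II promoters, 3 rose and 1 fell in adenoma against epithelium alone, where 22.5% of all genes were called higher and 18.5% lower. Rfxank, a subunit of the RFX complex, fell (-1.85 ± 0.20, adjusted p = 1.54e-05), while Rfx5 and Rfxap were not called. The NF-Y subunits Nfya and Nfyb rose by 1.09 ± 0.16 and 1.20 ± 0.18, and Creb1 by 0.80 ± 0.12. The same counts, 3 and 1, were found against co-cultured epithelium, where 19% of all genes were called higher. Rfxank was at 9.02 and 9.18 in epithelium alone, 7.02 to 7.47 in adenoma and 6.81 to 7.50 in the fibroblast cultures.

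The interferon gamma pathway had 5 falls and 0 rises among 10 genes in adenoma, with a median of -0.61 against -0.03 over all genes. Irf8, a factor of myeloid cells also present in intestinal epithelium, fell (-3.00 ± 0.51, adjusted p = 0.000456), as did Irf2 (-1.48 ± 0.14), Irf1 (-1.23 ± 0.27) and the receptor chain Ifngr2 (-0.88 ± 0.22). The MHC class I pathway had 5 falls and 0 rises among 16 genes (median -0.48), among them beta-2 microglobulin, B2m (-1.03 ± 0.16), and the proteasome subunit Psmb10 (-1.90 ± 0.29). Of 15 interferon-induced genes only Irf7 fell (-2.63 ± 0.54), and of 8 costimulators and checkpoint ligands Cd80 rose by 1.83 ± 0.38 and Icosl fell (-1.44 ± 0.28). Over all genes 18.5% were called lower. The 12 macrophage markers averaged 3.80 to 3.82 in epithelium alone and 3.52 to 3.65 in adenoma, with 1 rise, Cd68 (2.35 ± 0.25), and 2 falls, Mertk (-4.40 ± 0.48) and Adgre1 (-0.58 ± 0.20), whose adenoma mean of 2.46 is under the dim level.

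**Figure D4:**
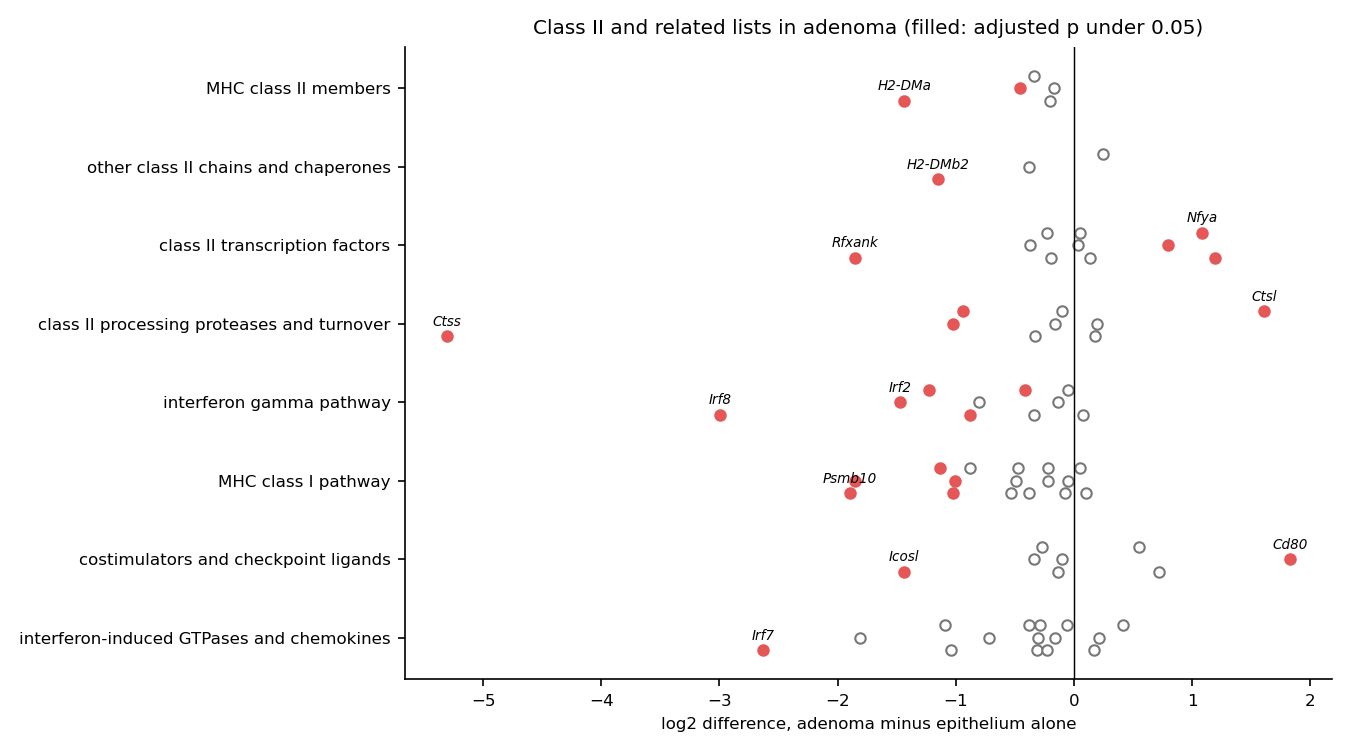
Log2 difference between adenoma and epithelium alone (horizontal axis) for every tested gene of 8 lists (rows), with filled points where the adjusted p was under 0.05; vertical offsets within a row only separate points. H2-DMa and Ctss lie on the lower side (-1.43 and -5.30), and Nfya and Cd80 on the higher side (1.09 and 1.83).

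Between fibroblasts and epithelium, both alone, the other lists moved in several directions. Of the 15 interferon-induced genes 7 were higher in fibroblasts and 0 lower, with a median of 1.77 against -0.02 over all genes, of which 26.5% were called higher. Among them were Gbp7 (4.05 ± 0.56) and Cxcl10 (5.40 ± 1.08). Of the 9 processing genes 6 were higher and 2 lower, with Ctsl at 3.78 ± 0.40 and the asparaginyl protease Lgmn at 2.43 ± 0.27. Of the 8 costimulators 4 were higher and 1 lower, with Cd80 at 4.98 ± 0.40, Cd274 at 3.46 ± 0.44 and Cd40 at 2.12 ± 0.25. Cd80 and Cd40 are also expressed by macrophages, of whose markers 11 of 12 were higher and 1, Mertk, was lower. The part of macrophages in these differences was not tested. Among the class II members H2-Ab1 had the highest difference (2.13, not called) and H2-Eb1 the lowest (-0.61).

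The genes nearest to each member were found by the root mean square difference between gene-centred log2 profiles over the 14 samples. For H2-Ab1 they were Slamf7 (0.26), Sele (0.36) and C1qtnf7 (0.38). Slamf7 had group means of 5.36 and 5.94 in fibroblasts alone and in co-culture, and 2.49 to 2.86 in the other groups. For H2-DMa they were Atp6v0d1 (0.22), a subunit of the vacuolar proton pump, Clip2 (0.25) and Cacna1a (0.27). Atp6v0d1 averaged 8.78 in adenoma and 9.96 to 10.24 in the other groups. Nearest to H2-Aa were Morn3, Grip2 and Pkd1l2 (0.10 to 0.12), to H2-Eb1 Relch, Zbtb22 and Ndufc1 (0.11 to 0.13), and to Ciita Bhlhe23, 5031425F14Rik and Nrk (0.16 to 0.18). No class II member was among the 5 nearest genes of another member.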

How the data were processed

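The deposited values are log2 probe set levels, made by the authors with RMA per the submitters' processing notes (for the version, array library file and build: not given in the sources used here). Each array received label made from 150 ng RNA, per the labels' protocols. RMA equalises arrays, so a shift of most genes in 1 direction would be hidden, and low levels are compressed. Array medians were 3.48 to 3.58. Precision is limited by how few arrays there are.

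Technical arrays of P21 and P34 were averaged, giving 14 samples of 9 animals. Of 41345 probe sets 23521 had 1 gene symbol, 1814 several and 16010 none here. A gene with several probe sets was read from the brightest. Genes were tested where the highest group mean passed 2.67 (4085 left out), with limma 3.58.1 in R 4.3.3: 5 group means (6 for the T2 comparison), a shared spread, empirical Bayes, Benjamini-Hochberg over all genes. Fits were tested on simulated data.

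The members and lists were chosen with earlier results of these data known. Named genes were the members, up to 4 genes per list by smallest p, genes known to act in class II expression, marker genes, and the 3 nearest profiles. Other genes were named after their values were seen, among them those given by fibroblast animal. The title of the third fibroblast monoculture was followed where another label differs on the animal. Mono- and co-cultures share animals, and deviations from group means correlated at 0.33 in epithelium and 0.62, 0.51 and 0.79 in fibroblasts. P-values cover only the spread between these samples. Alternatives were other filters, fits, normalization, probe set rules, blocks and left-out samples.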

Additional observations from a re-analysis of the deposited data

How the results depend on the processing

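The 45 member differences were recomputed under up to 27 alternatives. None of the 7 called differences changed sign in 182 recomputations, while 15 recomputations lost a call and 6 gained one. Differences not called in either fit changed sign in 52 recomputations, over 25 of them. In the comparisons of co-culture with monoculture, of both responses and of T2-titled adenomas, 0 members were called in every setting run, including the replicate block. Against epithelium alone, adenoma had 2 members called, and 1 in a fit of the compared groups only, with a trended robust variance, with the animal as a random replicate block, and without animal Pl_I; leaving out single samples gave 1 to 2. Fibroblasts against epithelium, both alone, had 1 called, but 0 in a fit of the compared groups, and 2 at an adjusted p under 0.1, with the random replicate block and without P28 and Pl_III; single samples gave 0 to 2. Leaving out single samples gave 0 to 1 for adenoma against co-cultured epithelium and for both co-cultures, and 1 to 2 for adenoma against fibroblasts alone. Without P28, or with 1 epithelial sample left out, an epithelial group is 1 sample assumed to vary like the others. The causes were not tested. Cyclic loess moved the median of all genes by at most 0.08 in size and changed no member's call. Levels near the dim level limit H2-Aa and, outside fibroblasts, H2-Ab1. Passing the dim level does not by itself show expression, as epithelial markers averaged 3.46 to 4.00 in fibroblasts. Levels in or near that range limit Ciita, H2-Eb1, H2-DMa in adenoma and H2-Ab1 in Pl_III.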
